A study of Homo sapiens with 18 samples.

Results

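The parental HCT116 line was compared with 8 clones derived from it by targeting IDH1 or IDH2, and the genes described are those in which both parental arrays lay above, or both lay below, all 16 arrays of the targeted clones. Of 12535 genes tested, 894 (7.13%) had both parental arrays above all 16 others and 964 (7.69%) had both below, which makes 1858 genes (14.8%) that lay apart. In the other 10677 genes at least 1 parental array lay inside the range of the targeted arrays or tied with its edge. The separation chose these genes, so neither it nor a test of the same difference is independent support for it. Values that played no part in the choice are the other probe sets of the same genes and the letters of their promoters, and these are given beside the groups.

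The HCT116 line was established from a human colorectal carcinoma. IDH1 encodes the isocitrate dehydrogenase of the cytosol that uses NADP, and IDH2 that of mitochondria. Every targeted clone carried 1 altered allele beside a wild-type one (labelled /+): 2C11 and 2H1 had IDH1 R132H, 3A4 had IDH1 R132C, 8G12 and 17H5 had IDH2 R140Q, and 47C2 and 45G3 had IDH2 R172K. Clone 16F8 was targeted with IDH1 R132C but, per its label, does not express the mutant allele and is wild-type at the mRNA level. Cells of all 9 groups were grown for 6 days, and each group was hybridised to 2 arrays that the labels call biological replicates without saying whether they came from separate cultures. Each group is thus 1 clone, and the parental group is 1 line that was neither targeted nor cloned, so that targeting, selection, single-cell cloning and passage cannot be told apart from parental status.

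Expression was read as probe set signal, the brightness that the array software gives for a set of probes against 1 transcript, and differences are given on the scale of log2(signal + 2.2), parental minus the mean of the 8 targeted clones. A value of 1 is a doubling of signal plus offset, and the difference of dim genes is understated by the offset. Genes were also tested with limma on the 9 clone means, where p measures the difference against the spread between the 8 targeted clones. At an adjusted p under 0.05, limma called 69 genes higher in parental (0.55% of those tested) and 109 lower (0.87%), and 2174 genes (17.3%) had an unadjusted p under 0.05. Of the called genes, 68 and 107 were among the genes that lay apart. The limma counts depended on single clones and arrays: they were 245 and 330 without clone 17H5, 146 and 225 without 3A4, 170 and 326 without parental replicate 1, and 117 and 180 without parental replicate 2. They were 24 and 34 without 2C11, 34 and 42 without 16F8, 41 and 55 without 8G12, 38 and 53 without 47C2, 36 and 46 without 45G3, and 45 and 66 without the first array of 45G3.

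The spiked poly-A controls, transcripts added to the RNA before labelling, were 1.68-fold brighter in 4 arrays than in the other 14: the first arrays of parental, 2C11 and 16F8 and the second of 8G12. Without those 4 arrays the parental line is 1 array, and 1716 genes then lay above and 2190 below. The parental arrays correlated with each other at 0.9892 over genes, within the 0.9873 to 0.9952 of the other replicate pairs. IDH1 itself read 1693.5 and 2008.4 in parental against 1036.1 to 2284.4 in the targeted arrays, and IDH2 read 152.6 and 101.7 against 90.4 to 305.1. Neither lay apart, and the signals do not show which allele was transcribed. Of 15 markers of colon epithelium, 10 were tested, and their summed signal was 14724.1 to 17303.1 in parental and 11737.7 to 14348.6 in the targeted arrays, while LGALS4, CDX1, VIL1, CEACAM5 and GPA33 stayed at signals of 8.7 or less everywhere. Fibroblast markers summed to 265.6 to 377.2 in parental and 208.1 to 363.4 in the others, nearly all of it COL1A1. Haematopoietic markers summed to 37.8 to 48.3 against 48.6 to 194.0, with PTPRC at 4.6 or less in all arrays and LYZ at 8.2 to 9.5 in parental and 9.7 to 142.1 in the others, and endothelial markers to 24.6 to 27.3 against 9.6 to 28.6, with none tested.

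Cells enter the cycle when E2F transcription factors are released from the retinoblastoma protein and switch on the genes of DNA synthesis. Origins are licensed by loading of the MCM helicase, fired with CDC45 and GINS, and copied by polymerases that are held to DNA by PCNA. ATF4 is the transcription factor of the integrated stress response, which is translated when amino acids run short or the endoplasmic reticulum is overloaded and then raises amino acid synthesis, transport and tRNA charging. Epithelial cells are joined by tight junctions and E-cadherin, and lose such genes in an epithelial-mesenchymal transition.

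The genes of DNA replication and of the step from G1 to S were the list with the largest share of members in which parental lay below the targeted clones. Both parental arrays lay below all 16 others in 44 of 56 tested members (78.6%, against 7.69% of all genes) and above them in 1. The median difference over the 56 was -0.69, beside -0.01 over all genes tested, and 55 of the 56 differences were negative. By limma 22 of the 56 were lower in parental, and RFC5, the 1 member above, did not pass. The list median was negative against each clone taken alone, from -0.46 against 17H5 and -0.58 against 3A4 to -0.85 against 45G3. Against 16F8, which does not express its mutant allele, it was -0.76. Without the 4 arrays with bright poly-A controls 46 members lay below. In RNA of a whole culture, fewer cells in S phase and less of these transcripts per cell cannot be told apart.

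**Figure D1:**
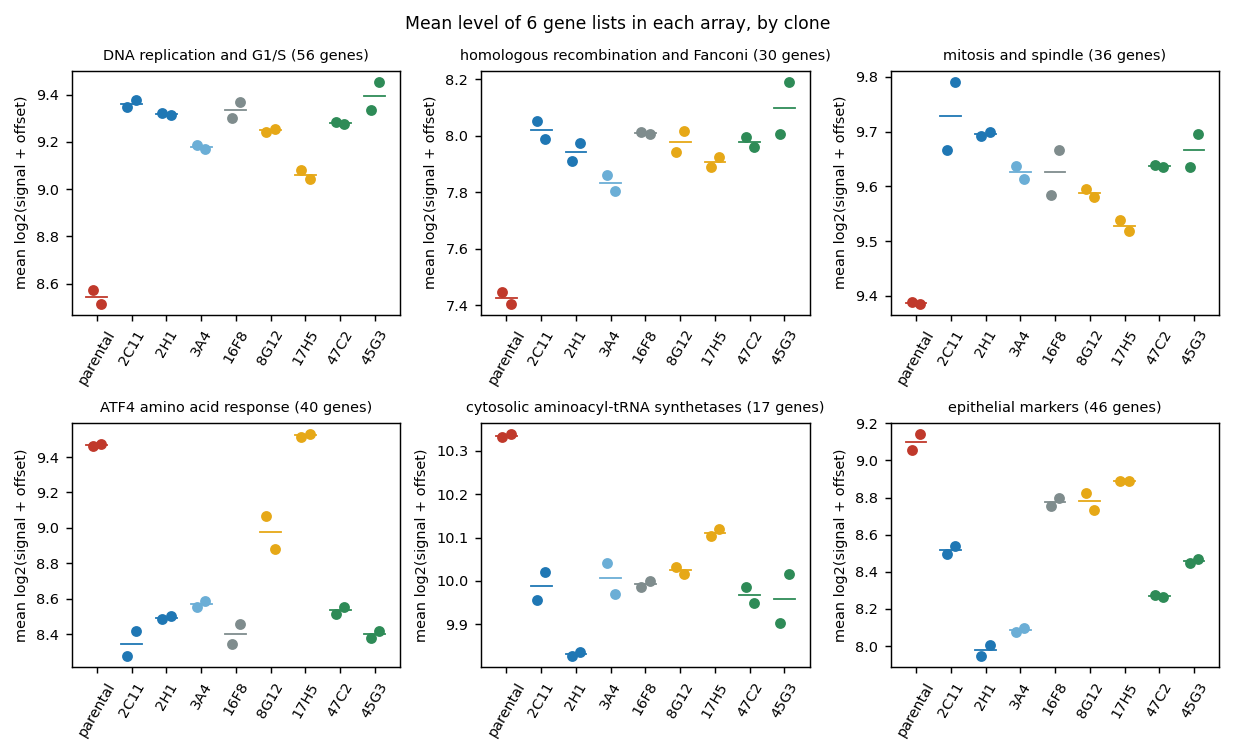
Mean log2(signal + 2.2) of 6 gene lists in each array; each panel is a list, each column a clone, each dot an array and each short line the mean of the clone's 2 arrays (red parental, grey 16F8, blue IDH1 clones, amber IDH2 R140Q clones, green IDH2 R172K clones), and the vertical axes do not start at 0. The parental arrays are lowest for replication (8.57 and 8.52, against 9.04 or more), recombination and mitosis, and highest for the synthetases and epithelial markers, while for the ATF4 list clone 17H5 (9.52 and 9.53) lies level with parental (9.46 and 9.48).

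E2F1, an activator of the G1 to S genes, read 58.1 and 84.0 in the parental arrays and 109.1 to 298.6 in the targeted arrays, with a median of 226. The difference was -1.49 (SE 0.27, limma adjusted p = 0.0273), and a second probe set of E2F1 also lay below all others (-1.82). E2F2, of the same activator class, read 316.2 and 274.5 against 555.1 to 909.2 (median 738), a difference of -1.29 (SE 0.18, limma adjusted p = 0.0168). Every targeted array was brighter than both parental arrays for both factors. E2F8, a repressor of the family that E2F factors themselves induce, lay below at -0.95, whereas E2F3 (-0.05) and E2F7 (-0.26) overlapped with the targeted arrays. CDC25A, the phosphatase that activates CDK2, lay below as well, at 177.5 and 156.2 against 214.6 to 584.8, but did not pass limma (-1.22, SE 0.34, adjusted p = 0.0981). Its lowest targeted arrays were those of 17H5.

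The helicase and its partners lay below as whole complexes. All 6 subunits of MCM2-7, the replicative helicase, lay below (-0.56 to -1.19, median -0.84), and limma called 5 of them lower. MCM4 read 588.2 and 587.5 in parental and 1112.7 to 1993.7 in the targeted arrays, with a median of 1303.9 (-1.19, SE 0.16, limma adjusted p = 0.0168). All 4 subunits of GINS, which joins the helicase to the polymerases, lay below (-0.61 to -1.45), led by GINS4 at 27.7 and 21.7 against 51.8 to 87.3 (limma adjusted p = 0.0168). The 4 subunits of polymerase alpha and primase, which lay down the first RNA-DNA primer, lay below too (-0.62 to -1.50). POLA2, the B subunit of polymerase alpha, read 47.8 and 48.4 in parental and 98.1 to 176.2 elsewhere, with a median of 144 (-1.50, SE 0.23, limma adjusted p = 0.0187). The 2 lowest targeted arrays of POLA2 were again those of 17H5, at 98.1 and 101.7, and the other 14 read 126.7 or more.

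RPA, the protein that coats single-stranded DNA, had its 3 subunits below (median -0.50). The clamp loader RFC had 3 of 5 subunits below, RFC1 overlapping and RFC5 above (0.25), but a second probe set of RFC5 differed in the other direction (-0.64). PCNA, the sliding clamp, read 1113.3 and 1027.7 against 1349.4 to 2626.3 and did not pass limma (-0.80, adjusted p = 0.0773). CHAF1A, the large subunit of the chromatin assembly factor that follows the fork, read 79.8 and 70.9 against 122.1 to 270.0 (-1.36, SE 0.24, limma adjusted p = 0.0261). The members that did not lie below, apart from RFC5, were ORC1, CDT1, CCNE1, POLD1, SLBP, E2F7, RFC1, RRM2, DBF4, E2F3 and CCND1, with differences from -0.01 (CCND1) to -1.16 (ORC1). Of the 44 members below, 25 had another tested probe set, and in 22 of these it lay below all others as well, with the same sign in all 25.

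**Figure D2:**
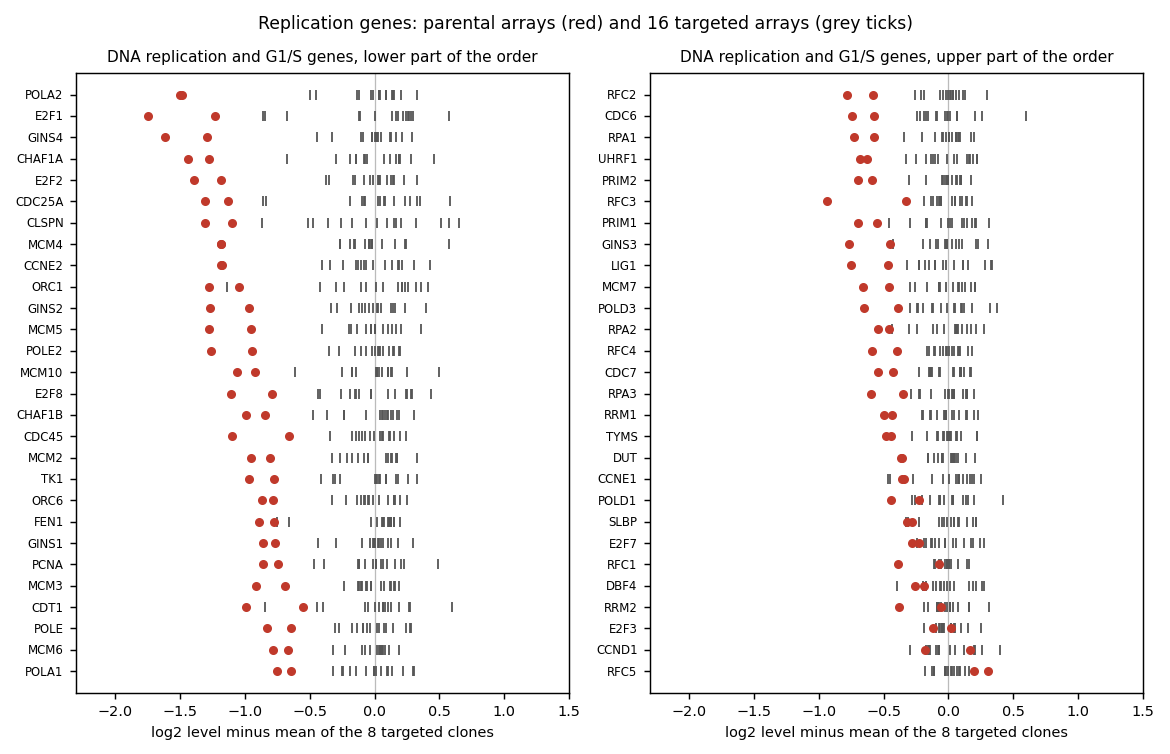
Each row is a DNA replication or G1/S gene and the horizontal axis is the log2(signal + 2.2) level minus the mean of the 8 targeted clones; red dots are the 2 parental arrays, grey ticks the 16 targeted arrays, and the panels split the 56 genes by the size of the difference. The red dots stand left of all grey ticks in 44 genes, from POLA2 (-1.50) and E2F1 (-1.49) down to small gaps, and right of them in RFC5 (0.25).

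The promoter letters were searched for the E2F-type words TTTCGCGC and TTTGGCGC on both strands, in RefSeq windows of 300 bases (250 before the start to 50 after it) that 10233 of the tested genes had. They occurred in 41 of 800 windows of genes below (5.12%), in 8 of 743 of genes above (1.08%) and in 1.70% of genes that did not lie apart, beside 1.18% of all 27195 windows of the table. Among the replication genes below, 13 of 36 windows held them (36.1%), and among all tested replication genes 13 of 47 (27.7%). With the replication, recombination and mitosis lists left out, 24 of 739 windows of genes below still held them (3.25%). E2F1 and POLA2, the members with the lowest differences in the list whose windows could be shown, carry one each. The stretches are printed 5′ to 3′ in the direction of the gene on RefSeq build GRCh38.p14, with the matched word in capitals. E2F1 is at chr20:33686386-33686425, minus strand, with the word 20 bases before the start, and POLA2 at chr11:65261889-65261936, plus strand, with the word 53 bases before it. A match is a description of letters and was not tested as a binding site.
E2F1: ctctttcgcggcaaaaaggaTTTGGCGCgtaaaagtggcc
POLA2: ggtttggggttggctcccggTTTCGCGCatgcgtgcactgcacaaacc

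Genes of homologous recombination and the Fanconi pathway, which repair broken and crosslinked DNA during S phase, were listed after values had been seen. Both parental arrays lay below in 17 of 30 tested members (56.7%, against 7.69% of all genes) and above in none. The median was -0.58, and limma called 5 lower, beside 0.87% of all genes. RAD54B, a DNA-dependent motor protein, read 284.7 and 235.8 in parental and 493.9 to 684.5 in the others (-1.12, SE 0.13, limma adjusted p = 0.0126). BRIP1, the helicase that binds BRCA1, read 193.8 and 164.2 against 246.6 to 482.1 (-1.12, SE 0.24, limma adjusted p = 0.0415), and its second probe set also lay below (-1.14). BLM and EXO1, a helicase and a nuclease of end resection, were both lower at -0.96. BRCA1 (-0.42) and PALB2 (-0.32) overlapped with the targeted arrays.

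Mitotic genes lay below less far. Of 36 tested, 13 lay below (36.1%, against 7.69% of all genes), none lay above, and the median was -0.21. KIF11, the kinesin that separates the spindle poles, was the 1 member that limma called, at 799.7 and 767.8 in parental against 1036.1 to 1263.8 (-0.54, SE 0.11, adjusted p = 0.0368). FOXM1, the transcription factor of G2 and M genes, read 320.2 and 279.0 against 394.1 to 579.1 (-0.65, limma adjusted p = 0.0517). BUB1 and BUB1B of the spindle checkpoint both lay below at -0.59. The proliferation marker MKI67 lay below at -0.26, while CCNB1 (-0.13), AURKB (-0.04) and UBE2C (-0.01) overlapped.

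Enzymes and carriers of nucleotide and folate metabolism were also listed after values had been seen. Of 22 tested, 9 lay below (40.9%, against 7.69% of all genes) and 1 above (4.55%, against 7.13%). CTPS1, which makes CTP, read 397.5 and 495.8 in parental and 669.3 to 941.8 in the targeted arrays (-0.86, SE 0.14, limma adjusted p = 0.0226). SLC29A1, a nucleoside transporter, was lower at -0.97 (limma adjusted p = 0.0273), and SHMT1, the cytosolic serine hydroxymethyltransferase, at -0.77 (0.0363). The folate carrier SLC19A1 lay below without passing (-0.91, adjusted p = 0.101). GART, of purine synthesis, was the member above, at 1268.3 and 2060.5 against 699.3 to 1197.1 (0.77, adjusted p = 0.0721).

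Outside all lists, limma called 75 further genes that lay below. Chosen after their values were seen, they include ATAD2 (-1.12), a chromatin protein of S phase; DTL (-0.92), the receptor of the ligase that destroys CDT1; GMNN (-0.69), the inhibitor of CDT1; TIMELESS (-0.75), of the fork protection complex; and ASF1B (-0.88), a histone chaperone. CHTF18 (-0.97) and DSCC1 (-0.94), subunits of an alternative clamp loader, and ESCO2 (-1.18) and CDCA5 (-0.94), which establish sister chromatid cohesion, were lower as well. HELLS, a chromatin remodeller needed for DNA methylation, was the 1 member of the chromatin list that limma called, at 207.7 and 221.7 against 359.1 to 515.1 (-0.98, SE 0.16, adjusted p = 0.023). MYBL1, a MYB-family factor, was lower at -1.37.

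On the other side, transcripts of the ATF4 response were bright in the parental line and in clone 17H5. Amino acid supply was not measured. Of 40 tested genes of the ATF4 list, 13 lay above all targeted arrays (32.5%, against 7.13% of all genes), none lay below, and 38 differences were positive with a median of 0.72. ATF5 alone passed limma, at 420.8 and 355.3 in parental against 131.7 to 259.8 (1.04, SE 0.21, adjusted p = 0.0368). Clone 17H5 shared the high levels: the list median was 0.08 against 17H5 and 0.42 against 8G12, the other IDH2 R140Q clone, but 0.85 to 1.15 against the remaining 6. Without 17H5, 22 of the 40 lay above, and without parental replicate 1, 21. Without the 4 arrays with bright poly-A controls the count was 22.

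ASNS, asparagine synthetase, read 2689.9 and 3269.9 in parental, 2076.8 and 1995.1 in 17H5, 1472.4 and 1285.4 in 8G12, and 770.1 to 1195.1 in the other 12 arrays. The parental arrays were the brightest and 17H5 the next, and the difference from the mean of all 8 clones was 1.39 (SE 0.36, limma adjusted p = 0.0842). TRIB3, a pseudokinase that feeds back on ATF4, read 846.8 and 887.3 in parental and 815.0 and 831.1 in 17H5, against 105.0 to 346.6 elsewhere. PCK2, the mitochondrial phosphoenolpyruvate carboxykinase, read 1385.7 and 1233.2 in parental and 1026.5 and 973.8 in 17H5, against 237.7 to 491.1. With 1 targeted clone so close to parental, neither gene passed limma (2.25, SE 0.83, adjusted p = 0.191 for TRIB3, and 1.96, SE 0.60, 0.126 for PCK2).

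PHGDH, the first enzyme of serine synthesis, read 1467.2 and 1165.2 in parental against 257.7 to 730.5 (1.53, SE 0.35, limma adjusted p = 0.0542). SLC7A11, the cystine importer, read 2271.9 and 2367.5 against 439.1 to 1880.5 (1.42, adjusted p = 0.217), and its second probe set also lay above (1.83). NUPR1, a small stress-induced nuclear protein, read 78.0 and 71.3 against 4.2 to 39.6 (1.95, adjusted p = 0.186). In all 3 the targeted arrays stayed under both parental arrays. ATF4 itself did not lie apart (0.17), nor did CHAC1 (1.97) or DDIT3 (1.51), which encode a glutathione-degrading enzyme and the factor CHOP. Both arrays of 17H5 were brighter than both parental arrays for CHAC1 and DDIT3. The same held for ATF3, SESN2, TSC22D3, STC2, SLC1A4, PPP1R15A, ALDH1L2, VEGFA, SLC1A5 and CEBPB. Relative to the mean of the 8 targeted clones, CHAC1 stood at 3.216 and 3.105 in 17H5 and 1.797 and 2.146 in parental. DDIT3 stood at 2.603 and 2.494 in 17H5 and 1.706 and 1.322 in parental. CBS, which makes cystathionine, had the opposite sign (-1.36), but its parental arrays disagreed (-0.325 and -2.395) and the first overlapped with the targeted arrays. GDF15, a secreted stress cytokine, lay above at 0.90.

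The enzymes that charge tRNA lay on the same side. Of 17 tested cytosolic aminoacyl-tRNA synthetases, 11 lay above all targeted arrays (64.7%, against 7.13% of all genes). None lay below, and the median was 0.35. WARS1, for tryptophan, read 989.4 and 930.7 in parental and 442.1 to 544.5 in all others (0.97, SE 0.12, limma adjusted p = 0.0168). SARS1, for serine, read 1822.5 and 1934.0 against 771.1 to 1308.4 (0.99, SE 0.19, limma adjusted p = 0.0332). These 2 of the 17 were higher by limma, beside 0.55% of all genes, and each lay above with no overlap. AARS1, for alanine, read 1807.6 and 1791.8 against 795.7 to 1368.6 (0.92, SE 0.22, limma adjusted p = 0.0649). CARS1 (0.89), GARS1 (0.57) and YARS1 (0.50) lay above, while KARS1, FARSA, FARSB, HARS1, RARS1 and VARS1 did not lie apart. When each gene was read from its most variable probe set in place of its brightest, 5 of the synthetases lay above and CARS1 differed by -0.02. Over the 7 members above with another tested probe set, that probe set had the same sign in 7 and lay above in 3.

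**Figure D3:**
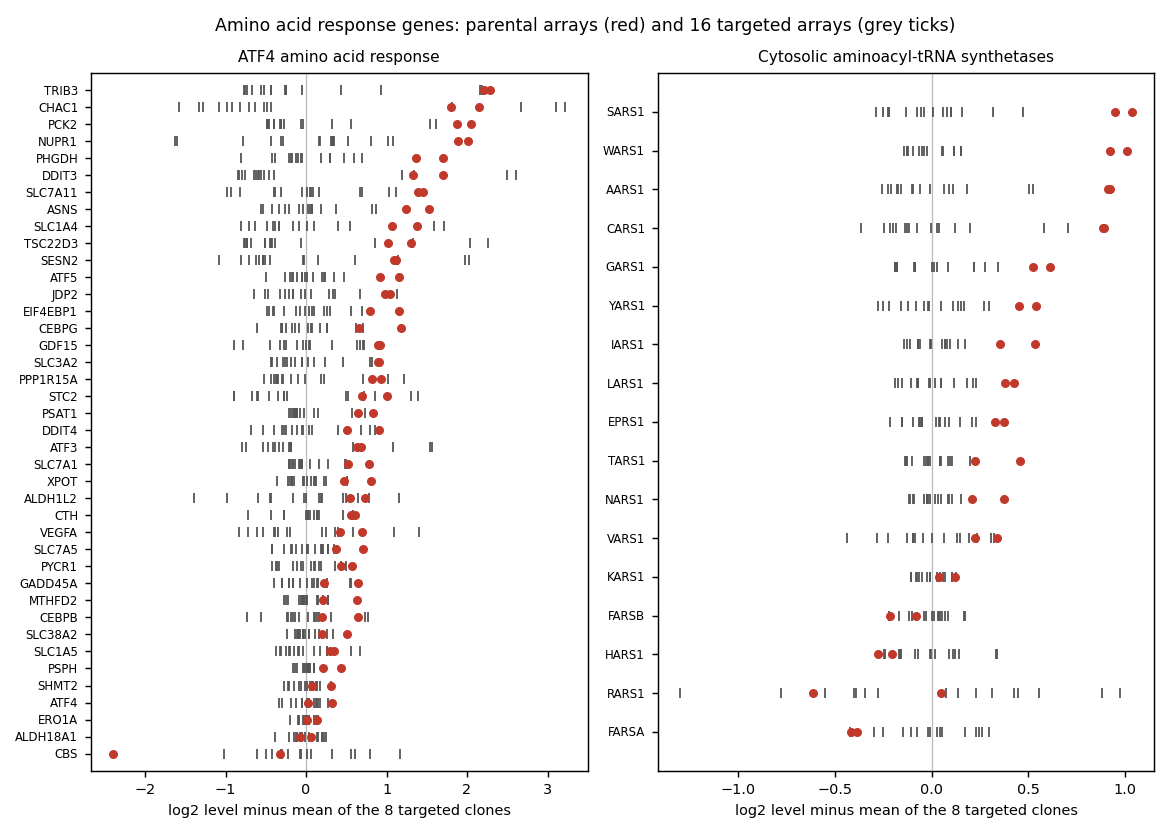
Each row is a gene of the ATF4 list (left) or a cytosolic synthetase (right), and the horizontal axis is the log2(signal + 2.2) level minus the mean of the 8 targeted clones; red dots are the 2 parental arrays and grey ticks the 16 targeted arrays. Grey ticks close to the red dots of TRIB3 and PCK2 are the 2 arrays of 17H5, whereas WARS1 (0.97) and SARS1 (0.99) are clear of all ticks.

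The letters TGATGNAA, those of the composite element bound by ATF4 with C/EBP proteins, were searched on both strands of the same windows. They occurred in 35 of 743 windows of genes above (4.71%), in 13 of 800 of genes below (1.62%) and in 1.58% of genes that did not lie apart. Over all 27195 windows of the table the share was 3.67%, and over the tested genes 1.81%. Of the synthetases above, 5 of 9 windows held them (55.6%), and of all tested synthetases 5 of 14 (35.7%). In the ATF4 list it was 3 of 9 for the genes above (33.3%) and 5 of 31 for all tested (16.1%). With both lists left out, 27 of 725 windows of genes above held them (3.72%). ASNS and AARS1 are shown as a synthesis and a charging gene that lay above and carry the letters. ASNS is at chr7:97872449-97872496, minus strand, with the word 68 bases before the start, and AARS1 at chr16:70289666-70289713, minus strand, with the word 187 bases before it and on the opposite strand to the gene, so that its reverse complement is in capitals.
ASNS: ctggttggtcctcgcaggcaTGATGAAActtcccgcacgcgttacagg
AARS1: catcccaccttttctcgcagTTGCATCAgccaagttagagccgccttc

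Genes of protein folding in the endoplasmic reticulum lay above more often than below. Of 23 tested, 8 lay above (34.8%, against 7.13% of all genes) and 1 below (4.35%, against 7.69%), with a median of 0.17. DNAJB9, a co-chaperone of the lumen, read 732.4 and 973.3 in parental against 337.8 to 505.7 (1.05, SE 0.15, limma adjusted p = 0.0168), and its second probe set lay above too (1.23). HYOU1, a large chaperone, read 1030.4 and 1079.1 against 531.1 to 767.3 (0.74, limma adjusted p = 0.0237). SEL1L, of the degradation machinery, was higher by its brightest probe set (0.57, limma adjusted p = 0.0249) but not by its other one (0.05). XBP1 (0.76), HERPUD1 (0.78) and HSPA5 (0.42) lay above, and SDF2L1 lay below (-0.52). Outside the lists, the membrane-bound factors ATF6 (1.10) and CREB3L2 (0.65) were higher by limma, named after their values were seen.

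Epithelial genes lay above in 15 of 46 tested (32.6%, against 7.13% of all genes) and below in none, with a median of 0.45 and 44 positive differences. KRT7, a keratin of simple ductal epithelia, read 143.7 and 133.1 in parental against 17.5 to 42.4 (2.29, SE 0.32, limma adjusted p = 0.0168), and its second probe set also lay above (3.60). KRT7 was the 1 member that limma called. CDH1, E-cadherin, read 1527.4 and 1596.1 against 450.0 to 1363.9 with a median of 695 (1.10, SE 0.49, adjusted p = 0.275). The brightest targeted arrays of CDH1 were those of 17H5 (1254.8 and 1363.9), and the dimmest those of 3A4 (450.0 and 453.5). KRT23 (2.72), S100A14 (2.60), MAL2 (1.56), AP1M2 (1.54) and CLDN7 (1.37) lay above with spreads between targeted clones that left limma's adjusted p at 0.296 to 0.637. MAL2, a raft protein of apical transport, ranged from 49.7 in 2H1 to 2355.5 in the targeted arrays.

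KRT8 (0.01), KRT18 (0.15) and EPCAM (0.43), which mark epithelial cells in general, overlapped. The list median was 0.78 and 0.80 against 2H1 and 3A4, and 0.15 to 0.55 against the others. Of 35 mesenchymal genes, 3 lay below (COL12A1, TGFB1 and MYL9), none lay above, and the median was -0.07. The share below, 8.57%, was near the 7.69% of all genes. ZEB1, a repressor of CDH1, read 145.2 and 153.5 in parental against 101.7 to 443.0 (-0.57, adjusted p = 0.686), and VIM, vimentin, 164.4 and 132.2 against 79.8 to 416.1. Both overlapped with the targeted arrays.

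Secreted protease inhibitors and proteins of the cornified layer, a list chosen after values had been seen, held steep differences. Of 16 tested, 9 lay above (56.2%, against 7.13% of all genes) and none below. Limma called 5 of them higher (CSTA, SLPI, SPRR1B, SPRR2B and SERPINB1), beside 0.55% of all genes. CSTA, cystatin A, read 1428.7 and 1358.0 in parental against 210.3 to 525.8 with a median of 297 (2.12, SE 0.39, limma adjusted p = 0.0273). SLPI, an inhibitor of neutrophil elastase, read 283.7 and 207.3 against 12.1 to 61.8 (3.03, SE 0.59, limma adjusted p = 0.0346). SPRR1B and SPRR2B, small proline-rich envelope proteins, were dim in parental (35.2 and 23.3, and 44.3 and 36.3) and at 4.3 or less and 8.0 or less elsewhere. These 2 passed the filter on low signals through the parental arrays alone. SERPINA3, an inhibitor of cathepsin G, read 183.9 and 130.3 against 1.1 to 32.9 and did not pass limma (3.54, SE 0.95, adjusted p = 0.087).

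Inflammatory genes gave a related pattern. Of 19 NF-kB and acute-phase genes, 6 lay above (31.6%, against 7.13% of all genes) and none below. LCN2, a siderophore-binding lipocalin, read 407.3 and 328.8 against 24.6 to 106.3 with a median of 49.8 (2.86, SE 0.52, limma adjusted p = 0.0261). C3, which passed the filter through parental alone, and CFB, complement components, lay above at 1.60 and 1.08, and NFKB2 at 0.52. Against 17H5 the median of the list was -0.03, and against the other 7 clones 0.19 to 0.75.

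Interferon-induced and antigen presentation genes lay above in 10 of 37 (27%, against 7.13% of all genes) and below in 2 (5.41%, against 7.69%). IFIH1, a cytosolic sensor of double-stranded RNA, read 157.8 and 178.9 in parental against 53.2 to 90.7 (1.22, SE 0.24, limma adjusted p = 0.0363). ISG20, an exonuclease, read 109.8 and 100.1 against 24.6 to 54.1 (1.42, SE 0.27, limma adjusted p = 0.0333), with a second probe set above as well (1.16). IFITM1, which blocks viral entry, read 118.1 and 125.4 against 3.6 to 78.6 (2.25, adjusted p = 0.33). OAS1 (-0.87) and OAS3 (-0.66), of the same interferon response, lay below. Genes of MHC class II and its regulators were listed after values had been seen. Of 13 tested, 4 lay above (30.8%, against 7.13% of all genes). Limma called none of the 13, while 3 had an unadjusted p under 0.05. The 4 include HLA-DQB1 at 61.6 and 63.0 against 9.4 to 43.9 (1.40, limma adjusted p = 0.258).

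Regulators that slow the cycle were again listed after values had been seen. Of 23 tested, 9 lay above (39.1%, against 7.13% of all genes) and none below. KLF11 read 597.0 and 563.6 in parental against 244.7 to 442.2 (0.82, SE 0.18, limma adjusted p = 0.0484). KLF4, a factor of differentiating gut epithelium, read 633.8 and 704.7 against 199.9 to 534.6 (1.24, adjusted p = 0.101). KLF9 (1.44), BTG1 (0.86), PNRC1 (0.82) and the MYC antagonists MXD1 (0.81) and MXI1 (0.42) lay above. CDKN1A, the p53-induced inhibitor p21, did not lie apart (-0.02). The p53 list had 2 of 27 members on each side (7.41%, near the 7.13% above and 7.69% below of all genes).

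Metabolic and ribosomal lists were read against the 7.13% above and 7.69% below over all genes. Ribosomal protein genes lay above in 1 of 52 (RPL18, 0.34), although all 52 differences were positive (median 0.18, range 0.09 to 0.34). Against 3A4 their median was -0.01. The mean log2 level of the ribosomal list was 11.865 and 12.164 in the 2 parental arrays and 11.532 to 12.11 in the targeted arrays. The first parental array thus lay inside the targeted range. Sterol and fatty acid synthesis lay below in 5 of 26 (19.2%) and above in 1, with FASN, fatty acid synthase, at 152.4 and 173.5 against 175.4 to 422.5 (-0.85, adjusted p = 0.255) and INSIG1 at -0.74. The TCA cycle and 2-oxoglutarate list lay below in 6 of 32 (18.8%) and above in 1, GOT1 (0.87), with a median of -0.02. Of the members below, 5 had another tested probe set, which had the same sign in 5 but lay below all targeted arrays in 0. Limma called none of the 32 at an adjusted p under 0.05, and 6 had an unadjusted p under 0.05. Respiratory chain genes lay apart in 1 of 53 on each side. Hypoxia and glycolysis had 3 of 37 below and 1 above, the NRF2 list 2 of 28 on each side, and ribosome biogenesis 1 of 29 below. Lysosome and autophagy genes lay above in 4 of 37 (MAP1LC3B 0.79, GABARAPL1 0.76, GAA 0.56 and BECN1 0.28).

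The lists that follow were read against the same shares, 7.13% above and 7.69% below. Immediate-early genes lay above in 1 of 30, metallothioneins in 1 of 10 and histones in 1 of 16. None of the 13 ERBB receptors and ligands lay apart. AXIN2, a Wnt target that feeds back on the pathway, was the 1 of 24 Wnt and stem cell genes below, at 138.5 and 168.9 against 169.2 to 848.4 (-1.46, adjusted p = 0.18), with its second probe set below too. Of 22 genes of gut differentiation, ANXA10 and KLF5 (0.41) lay above, and CA2 (-1.17) and TSPAN8 (-1.96) lay below. Among 7 tested cancer-testis antigens, MAGEB1 was higher (25.7 and 24.5 against 0.3 to 18.7; 2.61, limma adjusted p = 0.0332), having passed the filter on low signals through parental alone, and MAGEB2 lay below (-0.21).

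The largest differences were upward. Above, 217 of 894 genes differed by at least 1 and 46 by at least 2, and below, 112 of 964 and 4. The median size was 0.59 on either side, and the median gap between the parental arrays and the nearest other array was 0.14 above and 0.13 below. SPX, which encodes the peptide hormone spexin, read 312.0 and 278.4 in parental against 2.8 to 51.8 with a median of 8.5 (4.55, SE 0.91, limma adjusted p = 0.0363), and a second probe set also lay above (2.01). IL20RB, a receptor chain for IL-20 family cytokines, read 299.0 and 222.4 against 15.1 to 59.4 (3.36, SE 0.49, limma adjusted p = 0.0173). Its brightest targeted clone was 17H5. S100P, a calcium-binding protein, read 79.2 and 48.1 against 2.3 to 14.1 (2.76, limma adjusted p = 0.023). KLHDC7B (3.64) and LINC01512 (2.99) were also higher. S100P, KLHDC7B and LINC01512 passed the filter on low signals through parental alone, as did 44 of the 894 in all, so that the filter favoured a difference in them. The size of such differences depends on the offset: with an offset of 50 they were 0.96, 0.90 and 0.52.

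ANXA10, an annexin of gastric epithelium, read 243.3 and 169.6 in parental against 0.0 to 129.8, a spread that left limma's adjusted p at 0.165 (4.26). SGPP2, a sphingosine-1-phosphate phosphatase, lay above at 2.67 (adjusted p = 0.27), but its other probe set differed by only 0.39. Outside the lists limma called 51 genes above. Named after their values were seen, these include the matrix genes COL6A3 (2.48) and TNC (2.09), the pyrimidine salvage enzyme UPP1 (2.20), the arginase ARG2 (1.24) and the urokinase receptor PLAUR (1.00). PLAU, urokinase itself, lay above at 730.2 and 896.1 against 246.8 to 621.1 (1.07, adjusted p = 0.154).

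At the lower end, MRO, the gene maestro, read 8.5 and 10.7 in parental against 24.7 to 58.9 (-1.81, SE 0.26, limma adjusted p = 0.0168). PAQR9, of the progestin and adipoQ receptor family, read 0.3 and 2.5 against 6.6 to 30.4 (-2.24, limma adjusted p = 0.0409). Its parental signals were near or under the offset, and with an offset of 16 the difference was -0.81 and with 50 it was -0.33, neither past the threshold (adjusted p = 0.131 and 0.186). RUNX2, the factor of bone-forming cells, read 163.3 and 136.0 against 312.2 to 906.0 (-1.70, adjusted p = 0.0813). EFNA5, an ephrin, and SKIDA1 lay below at -1.86 and -1.90, each with a second probe set below as well (-1.82 and -2.16). CYP1A1 (-2.04), the xenobiotic monooxygenase, HPGD (-2.14), which inactivates prostaglandins, and TSPAN8 (-1.96) and LYZ (-1.77), both gut epithelial genes, lay below without passing limma. In 50 of the 964 genes below, at least 1 parental array was under the median signal of its array.

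**Figure D4:**
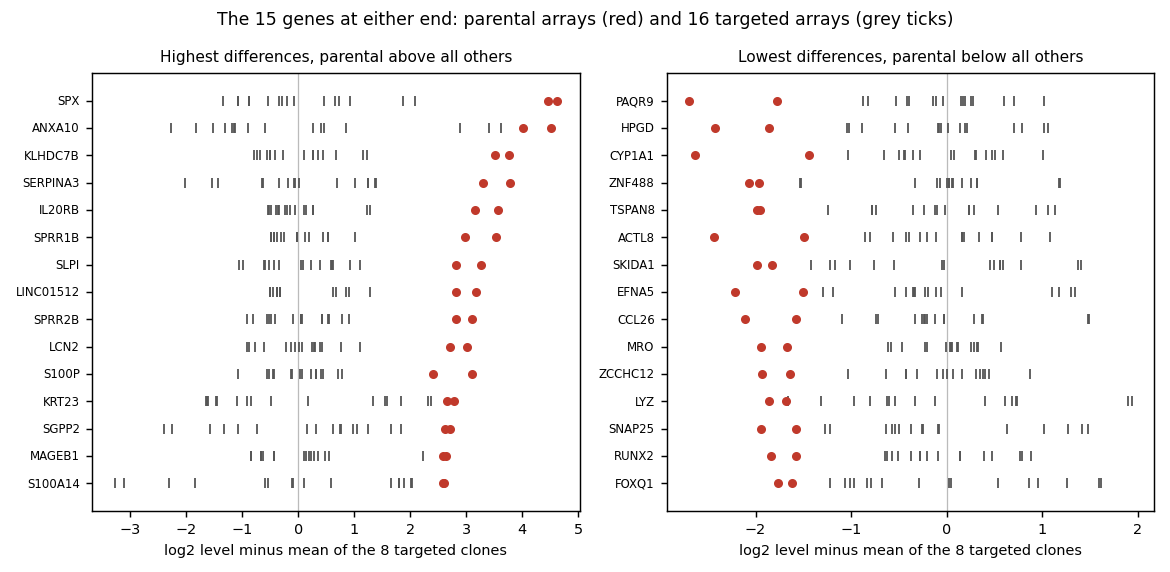
The 15 genes with the highest (left) and the 15 with the lowest difference (right) among those that lay apart; the horizontal axis is the log2(signal + 2.2) level minus the mean of the 8 targeted clones, red dots are the 2 parental arrays and grey ticks the 16 targeted arrays. The differences run from 2.60 (S100A14) to 4.55 (SPX) on the left and from -1.69 (FOXQ1) to -2.24 (PAQR9) on the right, and in ANXA10 and KRT23 some targeted arrays come close to parental.

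At the edge of the rule the gap to the nearest targeted array was 0.002 or less in log2. BCL2L2 was inside with 529.0 and 510.9 against a highest targeted array of 510.6, and GPBP1L1 with 1159.9 and 1398.0 against 1158.8. HYAL2 was inside below, at 178.8 and 183.1 against a lowest of 183.2, and RNF168 at 587.2 and 506.4 against 588.1. MYRFL (16.0 and 15.7 against 15.7) and SPACDR (14 and 16.1 against 14) were just outside above, and ADGRB2 (16.4 and 13.6 against 16.4) and NKX6-1 (10.3 and 4.7 against 10.3) just outside below, all by ties. A member of the set may therefore differ very little: 348 genes above and 366 below differed by under 0.5.

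Of the genes above, 493 had another tested probe set, which did not choose them. It lay above all targeted arrays in 180 (36.5%) and below in 5 (1.01%), and had the same sign in 91.7%. For 506 genes below, it lay below in 205 (40.5%) and above in 3 (0.593%), with the same sign in 91.5%. Among 5627 genes that did not lie apart, other probe sets lay above in 3.04% and below in 5.88%. Probe sets of a gene share the RNA and the array, so they repeat the measurement and not the culture.

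The targeted clone nearest to parental was 17H5 in 356 genes above (39.8%) and 375 below (38.9%). Each of the other 7 clones was nearest in 4.36% (45G3) to 13.6% (8G12) of genes above, and in 4.25% (47C2) to 15.4% (3A4) of genes below. The median of parental minus clone over the genes above was 0.39 for 17H5 and 0.48 to 0.68 for the others, and over the genes below -0.42 and -0.55 to -0.65. Over all tested genes the clone means correlated with parental at 0.9583 (3A4) to 0.9831 (17H5), a description across genes that are not independent. On the first principal component, which held 32.7% of the variance, parental scored 29.25 and 26.37, 17H5 22.93 and 27.6, and 3A4 -36.58 and -40.05. The arrays of the other clones ran there from -26.51 (2H1) to 17.33 (8G12). On the second, which held 17.4%, parental scored 30.6 and 33.0, 3A4 21.7 and 24.1, 17H5 4.35 and 2.03, and the other clones below 0. By chromosome, the share of tested genes above ran from 5.13% on chromosome 17 to 10.3% on chromosome 4, and that below from 4.29% on chromosome 13 to 13.7% on chromosome 21, where 17 of 124 genes lay below.

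**Figure D5:**
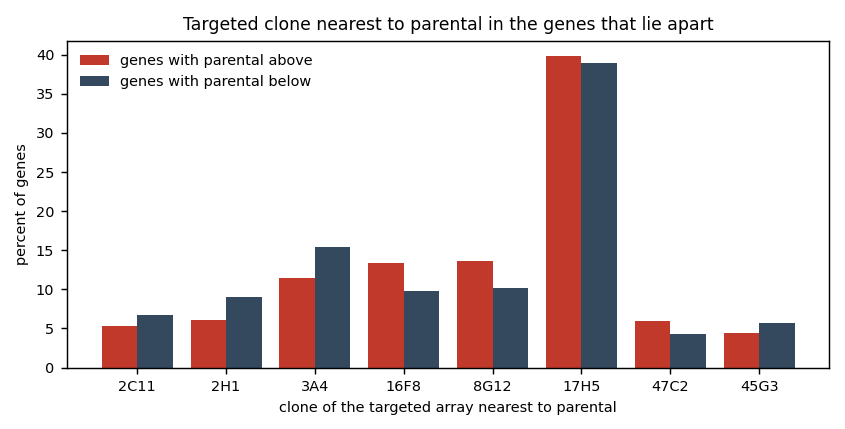
For each targeted clone, the percent of genes in which 1 of its arrays was the targeted array nearest to parental, for genes with parental above (red, of 894) and below (dark, of 964); bars start at 0. Clone 17H5 takes 39.8% and 38.9%, and no other clone more than 15.4%.

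Calls were followed through the omissions for the 34 genes past limma's threshold that the naming rule gave, and not for those named after their values were seen. Of the 34, 16 kept the call in all 27 fits that left out an array, a clone or the 4 arrays with bright poly-A controls. Among them were POLA2, GINS4, E2F2, RAD54B, HELLS, CTPS1, KRT7, WARS1, DNAJB9, HYOU1, IL20RB and MRO. S100P, KLHDC7B and SPRR1B kept the call too, but the filter, which they passed through parental alone, favoured that call. MRO passed the filter only through targeted clones, both its parental signals being under their array medians, so the filter favoured its call as well. The other 18 of the 34 lost the call in at least 1 fit, with adjusted p up to 0.173 (MAGEB1 without the first array of 45G3), BRIP1, PAQR9 and KLF11 in 12, 13 and 16 of the fits and E2F1 in 5, while the sign of all 34 stayed. The omissions that ended most calls were those of clones 2C11 (16 calls), 16F8 (14), 45G3 (14), 47C2 (11) and 8G12 (10), and none was lost without clone 17H5 or clone 3A4.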

How the data were processed

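The data are 18 one-colour Affymetrix expression arrays, 2 per clone. The authors deposited linear intensities computed with MAS5, per the labels; which version and settings they used is not given in the sources used here. Medians of the arrays ran from 12.3 to 15.6. Averaged over their middle 96% of probe sets, all arrays came to 150.01 or 150.02.

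Signals were taken as log2(signal + 2.2), the offset being the 25th percentile of all signals. Of 54675 probe sets, 41039 carried 1 gene symbol, updated through RefSeq; chromosome Y genes and XIST were left out. Probe sets stayed in if both arrays of some clone reached the median of their array. A gene was read from its brightest probe set, so that 12535 of 19741 genes were tested. The fit used limma 3.58.1 (lmFit, eBayes with trend) under R 4.3.3 on 9 clone means, with 7 residual degrees of freedom and Benjamini-Hochberg adjustment over all genes tested (two-sided, threshold 0.05). The parental line is assumed to vary like the targeted clones, and the p-values measure the spread between these clones. An exact test that places 1 clone among 9 cannot go below 0.111, so none was run. Tested on simulated data with 100 genes each, the fit recovered 50% of log2 changes of 1 and 91% of changes of 2. The number of arrays limits the precision.

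The genes that lie apart and the lists were chosen with earlier results of these data known. Genes were named by a rule: the 15 highest and 15 lowest differences, up to 6 members of each list by size among those that lay apart (2 of any list with fewer), the edges of the rule, and IDH1, IDH2, ZEB1, CDH1, EPCAM and VIM. Subunits of complexes, other list members, and genes outside the lists were named after their values were seen. Replicate numbers did not pair the clones: deviations of first arrays correlated at -0.356 to 0.383 over 36 pairs of clones. In all, 38 alternatives were run on offset, filter, probe set, normalization, variance model, unit of replication and arrays left out. Promoter letters come from RefSeq windows of GRCh38.p14. Figures were drawn with matplotlib 3.10.9 in Python 3.11.15.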

Additional observations from a re-analysis of the deposited data

Results flagged for a closer look

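Over 200 gene lists and genes, the highest or lowest of the 8 targeted clones stood apart from the nearest other clone by a share of the clones' range past Dixon's 95% critical value in 14. Chance flags about 1 in 20 groups, but most of these genes were chosen because parental lies apart, and BCL2L2, HYAL2 and RNF168 because a targeted array almost touches parental, so the tally by clone is a description. Clone 17H5 was the one in 11 of the 14, on the side of parental. It was highest for BCL2L2 (mean signal 508.4), IL20RB (58.1), KLF4 (522.8) and PCK2 (1000.2). It was lowest for BMP4 (181.6), BUB1 (588.6), CDC25A (216.0), HYAL2 (184.6), NRG4 (8.1), POLA2 (99.9) and RNF168 (596.2). Clone 47C2 was lowest for BECN1 (644.2) and 2H1 for MAL2 (51.1). Clone 3A4 was highest in the mean log2 level of the gut differentiation list (5.72), with a gap of 0.818 of the range.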

How the results depend on the processing

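Counts past limma's threshold, 69 higher and 109 lower in parental, depended most on the unit of replication. With the 18 arrays as the unit they were 1973 and 2230, and with the replicate number as a block as well 1967 and 2214, although the numbers do not pair the clones; the block changed no list median. With the clone as a random block they were 264 and 350, and with the genotypes as separate groups 396 and 378. An offset of 50 gave 127 and 117, so the split of higher against lower calls turned, and no filter gave 57 and 72. Leaving out 1 array gave 45 to 170 and 66 to 326. Leaving out a clone gave 24 and 34 (2C11), 146 and 225 (3A4), 34 and 42 (16F8), 41 and 55 (8G12), 245 and 330 (17H5), 38 and 53 (47C2), and 36 and 46 (45G3), and leaving out the 4 arrays with bright poly-A controls gave 102 and 220. Genes above numbered 900 to 1759 and genes below 976 to 2030 without 1 array, with the high ends where 1 parental array was left, and 1716 and 2190 without the 4 arrays.

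Among the lists, the 13 ATF4 members above became 13 to 21 without 1 array, 22 without 17H5 and 22 without the 4 arrays, and synthetases above from 11 to 5 with the most variable probe set. The replication median of -0.69 was -0.65 and -0.62 at offsets of 16 and 50, -0.77 with the most variable probe set, -0.77 to -0.67 without 1 array and -0.77 without the 4 arrays. Mitosis (-0.21) was -0.38 with the most variable probe set and -0.25 to -0.21 without 1 array. ATF4 (0.72) was 0.63 at offset 50, 0.79 with a filter at a signal of 50, 0.83 with the most variable probe set, 0.79 without 8G12, 0.85 without 17H5 and 0.68 to 0.80 without 1 array. Synthetases (0.35) were 0.26 with the most variable probe set, 0.42 without the 4 arrays and 0.34 to 0.43 without 1 array. Epithelial markers (0.45) were 0.40 and 0.31 at offsets of 16 and 50, 0.39 with the most variable probe set, 0.36 without 2H1, 0.35 without 3A4 and 0.41 to 0.46 without 1 array. The cause was not tested for any of these. Replication, mitosis, epithelial and interferon counts stayed within 1.5 times.

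For 169 named genes and 38 alternatives, 5767 of 6394 values kept direction and side of the threshold, 137 lost the threshold, 484 gained it and 6 turned sign, all with the most variable probe set: AKR1C2 (0.07), CARS1 (-0.02), COL1A1 (-0.03), IDH1 (-0.11), RNF168 (0.02) and SLC19A1 (0.02).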
